A study of Mus musculus with 4 samples.

Results

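AMPA receptor subunits and contactins, a pair of gene families best known from neurons, were followed in embryonic mouse ureters with and without a conditional deletion of a pair of fibroblast growth factor receptors. The set holds 10 genes, Gria1 to Gria4 and Cntn1 to Cntn6, read by 17 of the 39429 probes on the array. They were found by gene name among probes that are not array controls. Gria1 and Cntn1 stood out in an earlier look at the same arrays and their families were chosen for that reason, so the cDKO to control ratios of these 2 genes are given as a description, without a test.

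The cDKO (conditional double knockout) embryos carried 1 cre allele at the Tbx18 locus and were homozygous for floxed Fgfr1 and floxed Fgfr2. Control embryos carried floxed Fgfr1 and floxed Fgfr2 with the second allele unstated, and no cre allele is listed for them. All embryos were NMRI mice at E14.5 (the embryonic day), and the RNA came from ureters dissected mechanically. Tbx18 is a transcription factor gene of the mesenchyme around the ureter, so the cre is driven in that tissue layer. Each of the 4 arrays set cDKO RNA against control RNA of the same sex label, female on replicates 1 and 4 and male on replicates 2 and 3. The dyes were swapped on replicates 2 and 4. No animal or pool is named behind an extract, so a p-value here measures the spread between 4 pairs of extracts, which may be technical.

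AMPA receptors are tetramers assembled from the Gria1 to Gria4 products, which open a cation channel when glutamate binds and carry most fast excitation in the brain. The Gria2 subunit, once its transcript is edited, keeps calcium out of the channel. Contactins are cell surface proteins of the immunoglobulin superfamily, held in the membrane by a lipid anchor, that guide axons and help to organise myelinated fibres. Neither family is chiefly known for a role in the ureter.

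The sequences behind the 3 genes with the highest ratios are shown first, so that what each spot reads is plain. The leading 30 bases of each probe, as the scanner files give them, are printed 5′ to 3′ in lower case. Each of these genes has 1 probe on the array.
Gria1: catttgatcagacactaaatatttggggta
Cntn1: gggttcctgcctatttttgaaagaccctca
Cntn3: gctattctcttgtttcctgttatttctatc
In mouse build mm9, the whole probes lie at chr11:57143613-57143672 on the plus strand for Gria1, at chr15:92170470-92170529 on the plus strand for Cntn1 and at chr6:102113406-102113465 on the minus strand for Cntn3. No gene annotation of that build was used here, so the exon or untranslated region under each probe is not given.

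Promoter windows of the 2 contactins that were higher in cDKO ureters follow, from RefSeq in build GRCm38.p6, each reaching from 250 bases before the gene's start to 50 bases after it. Capitals mark a match to a motif searched. The table holds 3 windows for Cntn1, of which the one at chr15:92050915-92051214 (plus strand) is printed, and 1 for Cntn3, at chr6:102464618-102464917 (minus strand).
Cntn1: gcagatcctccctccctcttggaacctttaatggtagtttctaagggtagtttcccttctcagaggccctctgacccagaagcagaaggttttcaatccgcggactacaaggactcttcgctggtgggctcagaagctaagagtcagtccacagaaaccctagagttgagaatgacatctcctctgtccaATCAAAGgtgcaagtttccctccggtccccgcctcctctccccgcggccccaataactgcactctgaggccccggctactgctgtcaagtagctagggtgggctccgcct
Cntn3: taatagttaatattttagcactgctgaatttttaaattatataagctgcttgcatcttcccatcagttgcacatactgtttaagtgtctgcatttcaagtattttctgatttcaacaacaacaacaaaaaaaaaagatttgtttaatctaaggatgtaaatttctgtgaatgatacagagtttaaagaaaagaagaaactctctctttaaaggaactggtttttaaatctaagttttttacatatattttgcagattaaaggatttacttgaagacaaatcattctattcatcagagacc
The Cntn1 window is 55.3% G and C with 9 CpG pairs, whereas the Cntn3 window is 27.7% G and C with no CpG pair at all. The other 2 Cntn1 windows are 34.7% and 45.0% G and C, with 5 and 4 CpG pairs and no motif match. The median window of the table is 52.7% G and C and holds 7 CpG pairs. The capitals in Cntn1 are the TCF/LEF motif CTTTGAT on the opposite strand, 60 bases before the start. That motif stands in 3.73% of all 32851 windows, on either strand. The other motifs searched on both strands were CTTTGAA for TCF/LEF (5.14% of windows), GACCACCCA for GLI (0.253%), AGGTCA for nuclear receptors (16.3%), AGGTGTGA for T-box factors (1.28%) and TTCAGCACC, the left part of the RE1 silencer element (0.371%). Among the 12 windows of 8 members, CTTTGAT was also in 1 window of Cntn4 and CTTTGAA in the window of Cntn6, and none of the other 4 motifs was found. Gria1 and Gria3 have no window in the table.

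Across the arrays as a whole, 165 of 19365 measured genes passed the test of cDKO against control (0.852%), 107 of them higher in cDKO ureters (0.553%) and 58 lower (0.3%). A gene passed at an adjusted p under 0.05 in limma, with Benjamini-Hochberg adjustment over all measured genes. Median spot intensity was 139 to 383 in cDKO channels and 169 to 417 in control channels, and 66.1 to 71.8% of spots in cDKO channels and 64.9 to 72.6% in control channels stood well above background. No spot was saturated. The log2 ratios of different arrays correlated with each other between 0.01 and 0.51 across genes. Replicates 1 and 2 shared a scan identifier in the file headers, and replicates 3 and 4 shared another. These pairs are called slide 1 and slide 2 here, so the slide is inferred from the scan and not read from a label. Fgfr1 had log2 ratios between -0.59 and -0.09, a mean of -0.40 ± 0.10 that did not pass (adjusted p = 0.117). Fgfr2 lay between 0.50 and 0.68 and was called higher in cDKO ureters (0.59 ± 0.07, adjusted p = 0.0356). How these probes lie relative to the deleted parts is not known here, so the values do not check the labels.

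Of the 10 members, 8 were measured, and 3 of these, Gria1, Cntn1 and Cntn3, had all 4 cDKO channels above all 4 control channels. None had all cDKO channels below all control channels. Over all genes those shares were 4.7% and 3.35%, but the choice of the families fixed Gria1 and Cntn1, and without them the count was 1 of 6 above and 0 below. Of the 6 measured members for which the families were not chosen, Cntn3 alone passed the test, 0 were called lower, and the median log2 ratio was -0.08, against 0.01 over all genes. Among these 6, the log2 ratio was above 0 for 2 and below 0 for 4, while 52.6% of all genes were above 0. The 2 were Cntn3 and Cntn2, and Cntn2 passed the filter through its cDKO channels alone. Only Gria2 and Cntn5 were too dim to be kept.

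**Figure D1:**
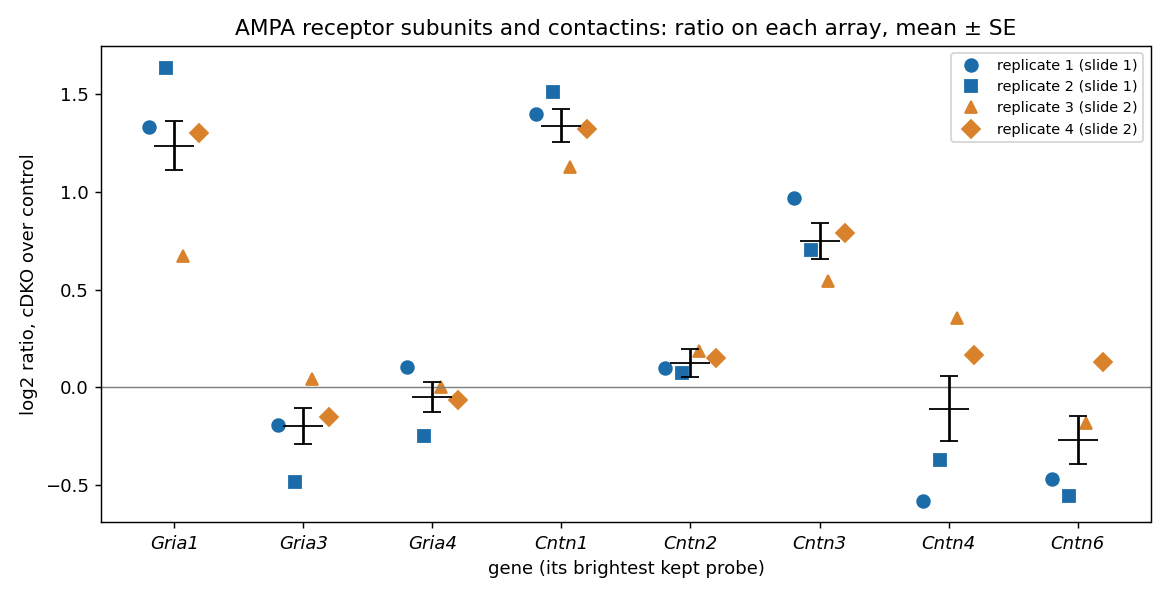
Log2 ratio of cDKO over control (vertical axis) for the 8 measured genes (horizontal axis), with 1 point for each array, shaped by replicate and coloured by slide, and the mean ± SE of the fit in black. Gria1, Cntn1 and Cntn3 lie above 0 on all 4 arrays, whereas Cntn4 lies below 0 on slide 1 and above 0 on slide 2.

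Gria1 encodes a core AMPA receptor subunit whose insertion at synapses is classically linked to plasticity. Its normalized log2 level was 9.26, 9.37, 8.99 and 9.41 in the cDKO channels of replicates 1 to 4, against 7.93, 7.73, 8.32 and 8.11 in the control channels. The lowest cDKO channel and the highest control channel were both those of replicate 3, and the groups did not overlap. The log2 ratio was 1.33, 1.64, 0.67 and 1.30 on the 4 arrays (SD 0.40). Its mean was 1.24 ± 0.12 (SE of the fit, n = 4), or 2.35-fold. It ranked as the tenth highest ratio of 19365 genes. The ratio was 1.48 on slide 1 and 0.99 on slide 2, a difference of 0.50 ± 0.15 that did not pass the test of the slide effect (adjusted p = 0.205). All 16 spots in cDKO channels and all 16 in control channels were well above background, at 6.07 to 22.9 and 3.37 to 9.69 times the local background. Bulk ureter RNA was measured, so fewer cells of a type and less RNA per cell cannot be told apart here or in any result that follows.

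Gria2, whose product normally sets the calcium permeability of the receptor, was scarcely detected. At its brighter probe, 6 of 16 spots in cDKO channels and 12 of 16 in control channels were well above background, and at the other probe 0 of 16 spots were in each group. The signal of the brighter probe was 1.37 to 3.07 times the local background in cDKO channels and 1.33 to 2.31 times in control channels. Detection of that probe also followed the dye, with 5 of 16 red and 13 of 16 green spots above background. Without the filter on dim probes the log2 ratio was -0.08 ± 0.13 (adjusted p = 0.883), and no fold is drawn from it.

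Gria3, an X-linked subunit, was read by 2 kept probes. The brighter, at chrX:39031099-39031158, had log2 levels of 9.32, 9.34, 9.47 and 9.45 in cDKO channels, against 9.51, 9.82, 9.43 and 9.60 in control channels. The groups overlapped, since replicate 3 ran the other way. The mean log2 ratio was -0.20 ± 0.09, which did not pass (adjusted p = 0.293). The second probe, at chrX:39007367-39007426, was below 0 on all 4 arrays, between -0.28 and -0.14, with a mean of -0.18 ± 0.07 (adjusted p over probes = 0.246).

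Gria4, a subunit abundant in interneurons and in early development, was read by 2 kept probes. The brighter gave a strong and level signal, at 91.8 to 315 times the local background in cDKO channels and 108 to 262 times in control channels. On that probe the log2 levels were 13.32, 13.13, 13.01 and 13.03 in cDKO channels, against 13.21, 13.38, 13.01 and 13.09 in control channels. The 2 groups covered nearly the same range. The mean log2 ratio was -0.05 ± 0.08 (adjusted p = 0.772), and the second probe gave -0.07 ± 0.09 (adjusted p over probes = 0.736). That second probe was dimmer, at 17.0 to 55.2 times the local background in cDKO channels and 20.3 to 54.1 times in control channels. Thus 3 subunits were read above background. The groups overlapped for Gria3 and Gria4. Gria1, where they did not, was chosen for its ratio, so its separation is a description only.

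**Figure D2:**
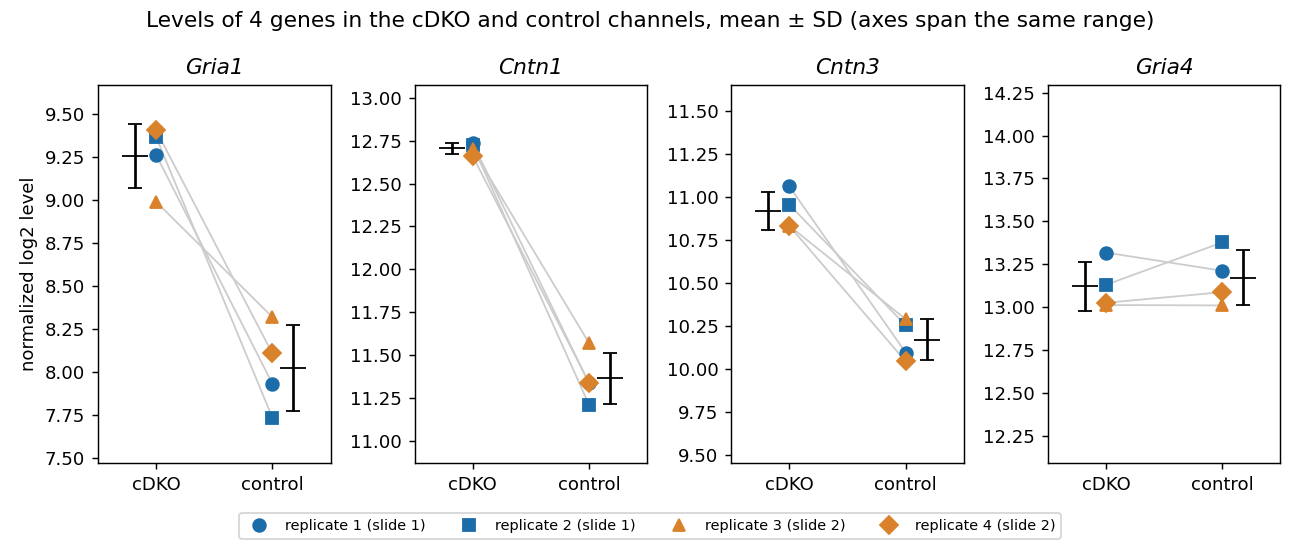
Normalized log2 level (vertical axes, of equal span) of Gria1, Cntn1, Cntn3 and Gria4 in the 4 cDKO channels and the 4 control channels, with lines joining the channels of an array and bars for the mean ± SD. The groups are apart for the first 3 genes and overlap for Gria4, and levels are not to be compared between genes because each has its own probe.

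Cntn1 encodes contactin 1, which binds Cntnap1 at the junctions beside the nodes of myelinated axons. Its log2 level was 12.74, 12.72, 12.70 and 12.66 in cDKO channels, against 11.34, 11.21, 11.57 and 11.34 in control channels. The cDKO values lay within a much narrower band (SD 0.03) than the control values (SD 0.15), and more than 1 log2 unit separated the nearest pair. The log2 ratio was 1.40, 1.51, 1.13 and 1.32 on the 4 arrays (SD 0.16). Its mean was 1.34 ± 0.08 (SE of the fit, n = 4), or 2.53-fold, the ninth highest of all genes. The slides gave 1.45 and 1.22, a difference of 0.23 ± 0.14 (adjusted p = 0.493). Signal stood at 74.1 to 246 times the local background in cDKO channels and 32.2 to 104 times in control channels.

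Cntn3, a contactin of brain neurons that promotes neurite outgrowth in culture, rose in cDKO ureters by 1.68-fold. Its log2 level was 11.06, 10.96, 10.83 and 10.83 in cDKO channels, against 10.09, 10.25, 10.29 and 10.04 in control channels. No cDKO channel fell within the control range. The log2 ratio was 0.97, 0.70, 0.54 and 0.79 on the 4 arrays, a mean of 0.75 ± 0.09 (adjusted p = 0.0351). The slides gave 0.83 and 0.67. The call was lost in 5 settings, where the adjusted p was 0.102 without replicate 1, 0.0643 without replicate 2, 0.0872 with a term for the sex label, 0.362 on slide 2 alone and 0.0967 without the filter on dim probes. The ratio itself stayed between 0.64 and 0.86 over 14 alternative settings, 9 of which kept the call.

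Cntn2 encodes an axonal contactin that helps to cluster potassium channels beside the nodes of myelinated fibres. Its kept probe was dim, at 1.84 to 3.47 times the local background in cDKO channels and 1.64 to 2.98 times in control channels. The filter kept it through the cDKO channels alone, with 16 of 16 spots above background there and 12 of 16 in control channels. By dye, 12 of 16 red and 16 of 16 green spots were above background. The log2 ratio was above 0 on all 4 arrays, between 0.07 and 0.19, with a mean of 0.13 ± 0.07 that did not pass (adjusted p = 0.387). A shared sign on all 4 arrays was found for 25.2% of all genes and for 2 of the 6 members for which the families were not chosen, Cntn2 and Cntn3. Cntn2 entered that count through the group where it was higher, so its sign there is a description only. The second Cntn2 probe had 0 of 16 spots above background in each group.

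Cntn4, which steers olfactory axons to their targets, split by slide. On its brightest probe the log2 level was 8.72, 8.94, 8.94 and 8.98 in cDKO channels, against 9.30, 9.31, 8.59 and 8.81 in control channels. On this probe the control channels of slide 1 were the high ones, while the cDKO channels stayed close together on both slides. The log2 ratio was -0.58 and -0.37 on slide 1, and 0.35 and 0.16 on slide 2. Their mean was -0.11 ± 0.16 (adjusted p = 0.771), and the difference of slide 1 minus slide 2 was -0.73 ± 0.16 (adjusted p = 0.0859). Its other 2 kept probes averaged -0.64 and -0.18 on slide 1 and 0.12 and 0.15 on slide 2. On the dimmer of these 2 the cDKO channels differed between slides instead. Its log2 level was 7.68, 7.83, 8.15 and 8.33 in cDKO channels, against 8.06, 7.83, 7.94 and 8.25 in control channels. The 3 probes read the same extracts and are not separate samples. The remaining probe was not kept, with 11 of 16 spots above background in each group.

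Cntn6, a contactin that can act as a Notch ligand in glial development, leaned the same way on slide 1. Its log2 level was 9.13, 9.01, 9.32 and 9.50 in cDKO channels, against 9.59, 9.57, 9.50 and 9.37 in control channels. On replicate 4 alone the cDKO channel was the higher of the pair, and the groups overlapped. The mean log2 ratio was -0.27 ± 0.12 (adjusted p = 0.296), made up of -0.51 on slide 1 and -0.03 on slide 2 (difference -0.48 ± 0.16, adjusted p = 0.234). Cntn5, known from the auditory pathway, had 6 of 16 spots above background in cDKO channels and 11 of 16 in control channels, and its ratio without the filter was -0.06 ± 0.05 (adjusted p = 0.694).

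**Figure D3:**
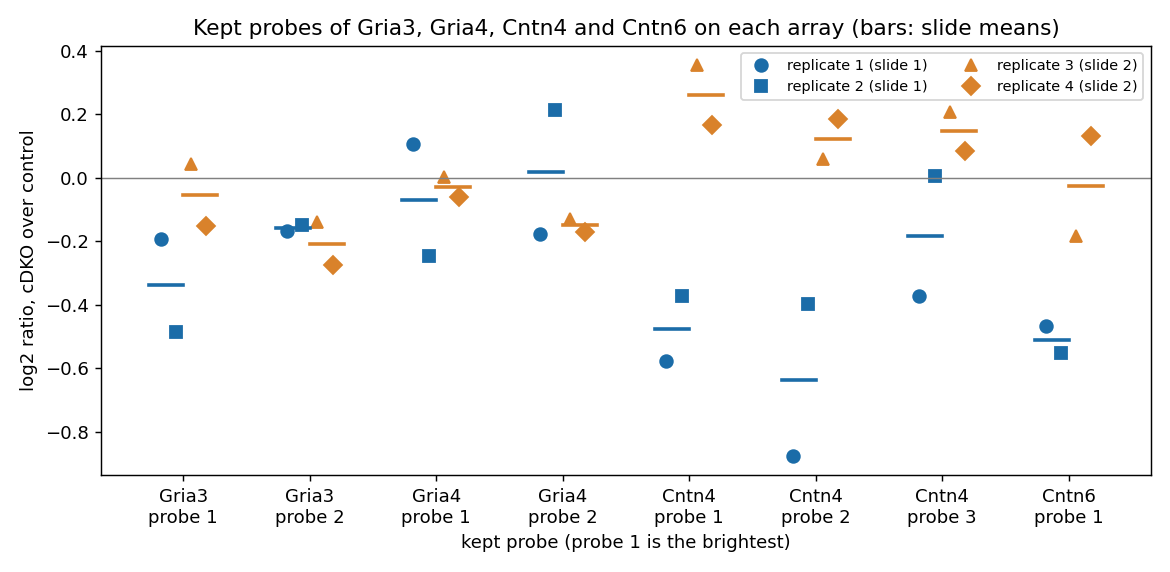
Log2 ratio of cDKO over control (vertical axis) on each array for the 8 kept probes of Gria3, Gria4, Cntn4 and Cntn6 (horizontal axis), with bars for the mean of each slide. The 3 Cntn4 probes and the Cntn6 probe have slide 1 means between -0.64 and -0.18 and slide 2 means between -0.03 and 0.26.

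The slide, dye and sex label were tested as terms beside genotype, contrasts that the choice of the families did not use. The fits with a slide term and with a sex label term each left 1 residual degree of freedom. The effect of cDKO differed between slides for 153 genes (0.79%), none of them a member. The lowest adjusted p among the 8 measured members was the 0.0859 of Cntn4, and 3 members of 8 had an unadjusted p under 0.05, against 2759 of all genes (14.2%). The dye effect was called for 0 genes (0%; 1704 at an unadjusted p under 0.05), with no member below 0.625. The sex label was likewise called for 0 genes (0%; 207, or 1.07%, at an unadjusted p under 0.05). With so few degrees of freedom, that count does not exclude a sex effect. Dye orientation and slide together fix the sex label on these arrays, so a sex effect and a dye effect that differs between slides cannot be told apart.

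None of the measured molecules that AMPA receptors work with passed the test, which 0.852% of all genes did. Lists this short would hold few calls at that share, so a count of 0 says little about the partners. The same share stands beside the count of each list below. Of 12 auxiliary subunits, which escort the receptor and shape its gating, 7 were measured and 0 passed in either direction, with a median log2 ratio of 0.22. The smallest p-values belonged to Shisa6 (0.37 ± 0.07, adjusted p = 0.0782) and Shisa7 (0.25 ± 0.08, adjusted p = 0.160), both AMPA receptor modulators. Shisa6 was dim, at a mean log2 level of 7.40 in cDKO channels and 7.03 in control channels. The highest ratio, singled out after its values were seen, was that of Gsg1l at 0.85 ± 0.27 (adjusted p = 0.172), with 1.08 and 1.88 on slide 1 and 0.26 and 0.17 on slide 2.

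Among 16 scaffold, trafficking and editing genes, 14 were measured and 0 passed, with a median of 0.08. Adarb1, the enzyme that edits the Gria2 transcript, stood at 0.33 ± 0.08 (adjusted p = 0.106) and the anchoring protein gene Akap5 at 0.28 ± 0.10 (adjusted p = 0.206). Kainate, NMDA and delta receptor genes gave 9 measured of 14, 0 called and a median of 0.11. The kainate receptor subunits Grik1, at 0.20 ± 0.09 (adjusted p = 0.261), and Grik5, at 0.14 ± 0.08 (adjusted p = 0.379), had the smallest p-values there.

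For the contactins, 13 of 18 partner genes were measured and 0 passed, with a median of 0.10. Tnc, an extracellular matrix glycoprotein that contactin 1 binds, stood at 0.34 ± 0.08 (adjusted p = 0.112) and Cntnap4, a contactin-associated protein gene, at 0.30 ± 0.08 (adjusted p = 0.119). Tnc was dim, at a mean log2 level of 7.35 in cDKO channels and 7.01 in control channels. Of 18 other neural adhesion genes 13 were measured, with a median of 0.24, and 1 rose. This was Nlgn1, a postsynaptic partner of neurexins, with log2 ratios of 1.06, 0.84, 0.73 and 0.41 and a mean of 0.76 ± 0.10 (adjusted p = 0.0397). Its adjusted p was 0.129 without replicate 1 and 0.0728 without replicate 2. Over all genes, 0.852% passed the test. All 5 list medians were above the 0.01 of all genes, and they were not tested as lists.

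**Figure D4:**
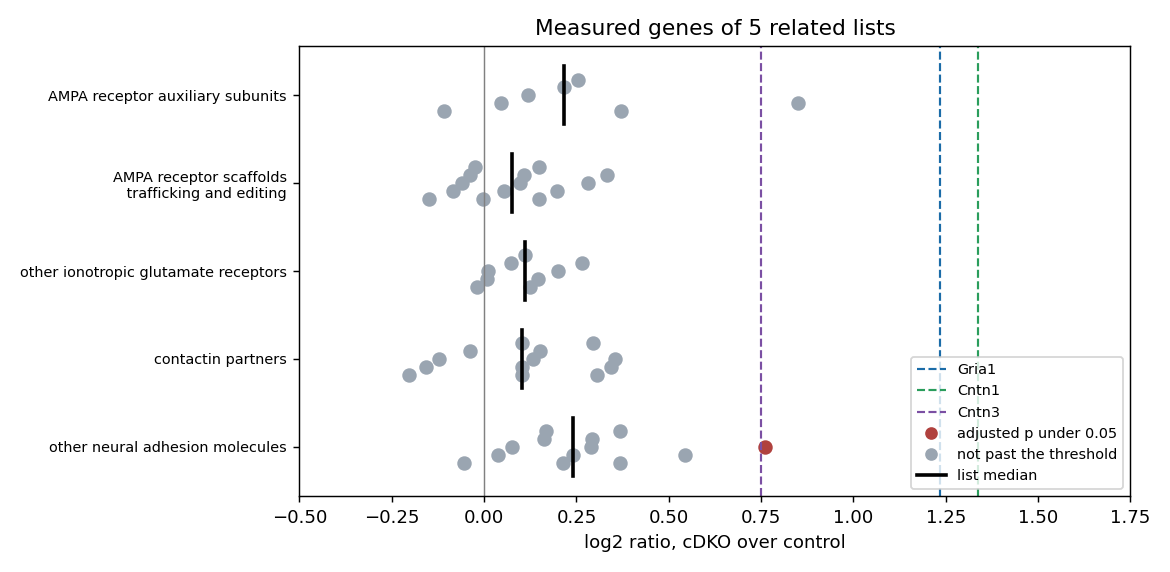
Log2 ratio of cDKO over control (horizontal axis) of each measured gene in 5 lists related to AMPA receptors and contactins (rows), with black bars for list medians and dashed lines for Gria1, Cntn1 and Cntn3. Nlgn1 is the gene past the threshold, and the list medians lie between 0.08 and 0.24.

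Markers of nerve and glia were set beside these genes on each array. Their counts of calls stand against the 0.852% of all genes that passed. All 16 neuronal markers were measured, so none stood at background in both groups, and 0 passed in either direction, with a median of 0.09, 10 above 0 and 6 below. Th, which makes catecholamines, stood at -0.64 ± 0.21 (adjusted p = 0.177), and Tubb3, a neuronal tubulin named after its values were seen, at 0.54 ± 0.22 (adjusted p = 0.247). The summed level of the 16 markers ran over 30802 to 52481 in cDKO channels and 32977 to 53494 in control channels, which overlap almost fully. On the 4 arrays the neuronal median was 0.24, -0.67, 1.01 and -0.52. It was above 0 where the cDKO dye was red (replicates 1 and 3) and below 0 where it was green (replicates 2 and 4). Gria1, Cntn1 and Cntn3 were above 0 on all 4 arrays and lowest on replicate 3, where the neuronal median was highest. What lay behind the pattern of the neuronal median, and the part of nerve tissue in the ratios of the 3 genes, was not tested.

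Of 10 glial and neural crest markers 8 were measured and 0 passed, with a median of -0.25. S100b stood at -0.45 ± 0.10 (adjusted p = 0.0989) and Ednrb at -0.37 ± 0.09 (adjusted p = 0.118). Glial sums were 74170 to 93521 in cDKO channels and 72759 to 99773 in control channels.

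**Figure D5:**
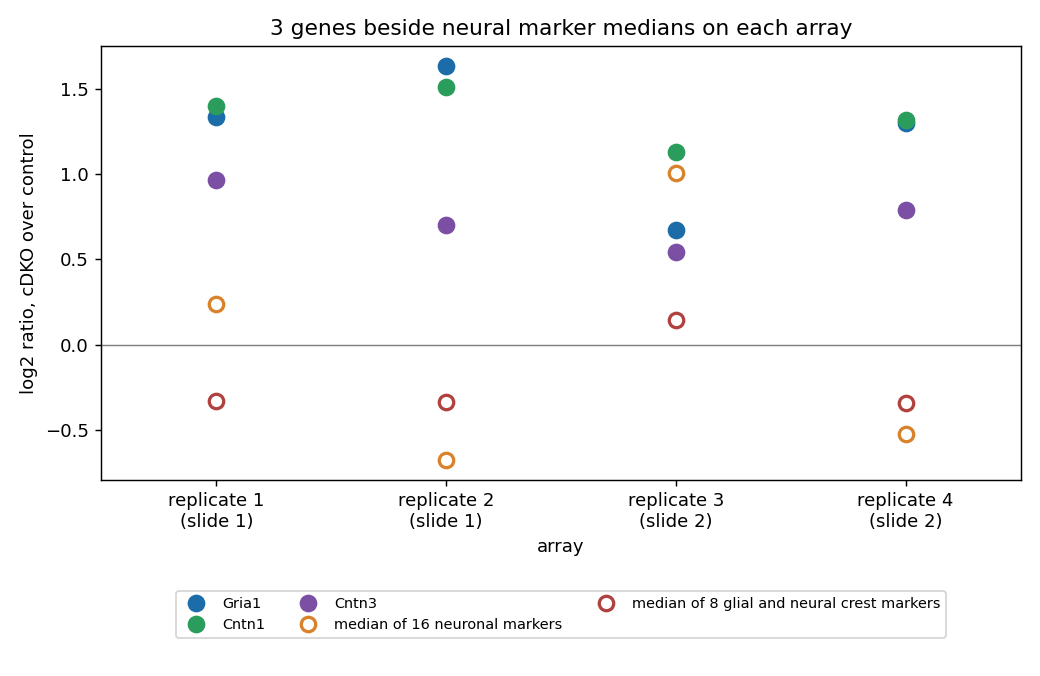
Log2 ratio of cDKO over control (vertical axis) on each of the 4 arrays (horizontal axis) for Gria1, Cntn1 and Cntn3 (filled) and for the medians of 16 neuronal and 8 glial and neural crest markers (open). The 3 genes stay between 0.54 and 1.64, while the neuronal median swings between -0.67 and 1.01.

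Markers of other cells that the dissected tissue could hold were also read, again beside the 0.852% of all genes that passed. Of 13 kidney and ureteric tip markers, all measured, 1 rose, Tfcp2l1, a transcription factor gene of collecting ducts, at 1.08 ± 0.15 (adjusted p = 0.0391, and 0.099 without replicate 1). The median was 0.12, with 10 markers above 0 and 3 below. The summed level was 27180 to 29942 in cDKO channels and 18124 to 24302 in control channels, which do not overlap. That separation rests on Tfcp2l1, because without it the sum of the other 12 markers, a comparison added after the data were seen, was 14224 to 16219 in cDKO channels and 12631 to 16104 in control channels, which overlap. Tfcp2l1 shared the direction of Gria1, Cntn1 and Cntn3, but its lowest ratio was on replicate 4 (0.56) and theirs on replicate 3. The part of kidney tissue in the ratios of these 3 genes was not tested. Of 8 ureteric mesenchyme markers 0 passed (median 0.26), with sums of 122875 to 153415 in cDKO channels and 111345 to 141615 in control channels. Smooth muscle markers gave 0 of 5 called (median 0.05), with sums of 10409 to 23119 in cDKO channels and 9095 to 14959 in control channels. Acta2 stood at 0.05, Tagln at 0.49, Myh11 at -0.22, Cnn1 at 0.00 and Myocd at 0.24. Of 8 urothelial markers 1 was called, Upk1b, a uroplakin gene, which fell by 1.43 on the log2 scale (adjusted p = 0.0401, and 0.0952 without replicate 1). The urothelial median was -0.31, with 3 markers above 0 and 5 below, and the summed level was 112458 to 137011 in cDKO channels and 114163 to 122591 in control channels.

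The genes whose levels most resembled each chosen gene were listed by Pearson correlation of log2 level over the 8 channels. These channels come in pairs that share an array, and the correlation is partly the difference between genotypes, so it is a description only. For Gria1 they were Shisal1 (r = 0.991), Aif1l (0.990), Aldh1a3 (0.989), Nudt10 (0.987) and C2cd2l (0.985). For Cntn1 they were Aldh1a3 (0.988), Fhod3 (0.980), Blnk (0.979), Ccdc9b (0.979) and Tfdp2 (0.978). Aldh1a3, an enzyme of retinoic acid synthesis, stood on both lists and had a log2 ratio of 2.05. Once each genotype's mean was removed, the correlations ran from 0.885 to 0.961 for the genes like Gria1 and from 0.142 to 0.870 for those like Cntn1. Gria1 and Cntn1 correlated with each other at 0.975 over the 8 channels, and Cntn3 with Cntn1 at 0.970. Within genotypes these values were 0.716 and 0.354.

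The authors' deposited table gives a signed fold per probe and array, positive where cDKO was higher. In the authors' deposited table Gria1 was at 3.25, 4.18, 1.70 and 2.81, Cntn1 at 2.67, 2.78, 2.06 and 2.60, and Cntn3 at 1.99, 1.66, 1.51 and 1.67. The lowest fold of Gria1 and of Cntn1 was again on replicate 3. For Cntn4 the brightest probe was at -1.62, -1.43, 1.34 and 1.13 in the authors' deposited table, with the same split by slide.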

How the data were processed

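The 10 genes, their families and all gene lists were chosen with earlier results of these data known. Per the labels' protocols, total RNA (150 ng) was amplified, labelled in 2 colours and hybridised to Agilent arrays. Agilent Feature Extraction 10.7.3.1 read the scans, per the file headers. Its deposited output holds raw mean intensity and local background intensity of both channels, processed intensity, a log10 ratio of red over green, and detection and outlier flags, for 4 spots of each probe. The authors' deposited value table holds a signed score, a fold with no values between -1 and 1, with a median of 1 on each array and between 10624 and 11152 probes at exactly 1. How it was scaled and centred is unknown here, and its direction was set by its correlation with the scanner ratios, 0.627 to 0.845.

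Mean intensity was corrected with normexp (offset 50), log2 ratios were normalized within arrays by loess (span 0.3), and the mean of the unmarked spots was taken. The filter retained 25591 of 39429 probes, those with 3 or more of 4 spots well above background in every cDKO channel or in every control channel, and the brightest kept probe stood for a gene. Gene names came from RefSeq through the accession (28328 probes), a current symbol (3400) or a synonym (243), and were left as in the file for 7458. Log2 levels per channel followed quantile scaling of mean intensity between arrays. Ratios were fitted with limma 3.58.1 in R 4.3.3, with genotype and dye terms, 2 residual degrees of freedom and a prior of 4.52. Two-sided p-values were adjusted over 19365 genes (Benjamini-Hochberg). Errors are the SE of the limma fit on n = 4 arrays unless marked SD. That SE is moderated by the prior and taken after the dye term, so it can be smaller than the plain SE of 4 ratios. In a simulation of this comparison over 19365 genes, recovery was 82.1% at a 1.5-fold change, 97% at 2-fold and 100% at 3-fold, and 3.12% of 192 calls fell on unchanged genes. Its errors were normal and independent, with variances drawn from the prior of the fit, and held no slide, dye or extract effect. These shares therefore check the code and do not measure recovery or false calls on the real arrays. The alternatives covered normalization, signals, dye, slide and sex terms, single slides, the filter, the probe rule, the deposited table and leaving out each array. Named genes were all members, up to 4 called genes of each list or else the 2 with the smallest p, every gene of a list of 5 or fewer, and the 5 most correlated with Gria1 and with Cntn1. Some genes that this rule names are not reported here. The number of arrays limits the precision.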

Additional observations from a re-analysis of the deposited data

Results flagged for a closer look

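The second probe of Gria4 gave a log2 ratio of 0.21 on replicate 2, far from the other 3 arrays, which lay between -0.18 and -0.13. The gap to the nearest of them, divided by the whole range, was 0.882, above the critical value of 0.829 for 4 values. All 17 member probes were examined in this way, and chance alone marks about 1 in 20 such groups. The brighter Gria4 probe had its lowest ratio, -0.25, on that same replicate, so the 2 probes of the gene disagreed there.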

How the results depend on the processing

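The number of genes called was 165 and moved to 255 with median centring, 258 without the dye term, 2389 with a slide term, 2 with a sex label term, 551 on slide 1 alone, 0 on slide 2 alone and 1 without the filter on dim probes. Leaving out 1 replicate gave 34 to 403. The cause of these shifts was not tested, although the single slides and the left-out replicates have fewer arrays. The slide and sex label terms leave 1 residual degree of freedom. Gria1 stayed between 0.99 and 1.52 and Cntn1 between 1.22 and 1.45 on the log2 scale over 14 alternatives, all above 0. Cntn4 changed sign to 0.26 on slide 2 alone, and ran from -0.34 to 0.12 when 1 replicate was left out, above 0 without replicate 1 (0.12) and without replicate 2 (0.03). The other tested members kept their sign in all 14, and of the tested members Cntn3 alone was called in any. Each array sets cDKO against control as a ratio, so the fit is itself paired and the pairing is part of every ratio. The calls of Nlgn1, Tfcp2l1 and Upk1b were lost with the sex label term (adjusted p = 0.0872 to 0.102), on slide 2 alone (0.346 to 0.431) and without the filter (0.113 to 0.126). Among the members, signal near background limits Gria2, Cntn2 and Cntn5, and Shisa6 and Tnc of the lists were dim.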
